A study of Homo sapiens with 10 samples.

Results

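The miR-378 family was examined as 4 mature microRNAs (miRNAs), hsa-miR-378a-3p, hsa-miR-378a-5p, hsa-miR-378c and hsa-miR-378d (written without the species prefix from here on), which occupied 5 of the 2794 rows of the deposited table and were 4 of its 2576 mature miRNAs. The members were chosen by name as 1 family, with the fold change and test of miR-378a-3p after IGF2BP3 depletion against controls in these libraries already known. Member values in that comparison are therefore given as a description. Where a call in it is counted, the count repeats what was known when the members were chosen, and nothing is read from it. The label of the family as metabolic comes from work in other systems, and metabolism was not measured here.

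The libraries were small RNA sequencing libraries of ES-2, an established human ovarian cancer cell line. Parental ES-2 cells were transfected with an siRNA pool against IGF2BP1 (siIGF2BP1, 2 libraries), IGF2BP2 (siIGF2BP2, 3 libraries) or IGF2BP3 (siIGF2BP3, 3 libraries), or with control siRNA (siC, 2 libraries). The IGF2BP genes encode paralogous RNA-binding proteins, and the series title concerns IGF2BP1 and repression of oncogenic factors by miRNAs. All groups shared the same culture medium, and siRNA depletion is transient and partial. The levels of the targeted mRNAs or proteins were not measured in these libraries, so depletion could not be checked here.

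MiRNAs pair with target transcripts mainly through the seed, the stretch that starts at the second base of the miRNA, and they reduce the stability and translation of those transcripts. MiR-378a is made from a hairpin precursor inside PPARGC1B, the gene of the coactivator PGC-1β, which promotes mitochondrial and oxidative metabolism. In mice, both arms of the hairpin are known for roles in mitochondrial metabolism, fat storage and muscle, and miR-378a-5p was described as a regulator of the switch to glycolysis in breast cancer cells.

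The RefSeq hairpin is shown because it carries both miR-378a arms, with the arms in capitals. It lies at chr5:149732825-149732890 on the plus strand of GRCh38.p14. In GENCODE the locus lies inside PPARGC1B, on the same strand and outside all of its annotated exons, and is thus intronic.
MIR378A hairpin: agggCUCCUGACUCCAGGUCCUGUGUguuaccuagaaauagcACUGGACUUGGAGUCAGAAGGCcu

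The 5p arm spans bases 5 to 26 of the 66-base hairpin and the 3p arm bases 43 to 64. The mature sequences below are those on which the comparison of family members turns, written 5′ to 3′ with the seed (bases 2 to 8) in capitals. RefSeq held 10 of the 12 entries looked up, among them 3 of the 4 members.
miR-378a-3p: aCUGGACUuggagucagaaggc
miR-378c: aCUGGACUuggagucagaagagugg
miR-378i: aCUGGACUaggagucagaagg
miR-378b: aCUGGACUuggaggcagaa
miR-422a: aCUGGACUuagggucagaaggc
miR-378a-5p: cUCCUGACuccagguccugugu

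The first 5 share 1 seed, and 7 of the matched entries carry it. MiR-378c (chr10:130962634-130962658, minus strand) is identical to miR-378a-3p over its first 20 bases and differs after them. Counted from 1 at the 5′ end, with the base of miR-378a-3p first, miR-378i differs by U9A over those 20 bases. MiR-378b, which is 19 bases long, differs by U14G over its length. MiR-422a, named for another family, differs by G10A and A12G over the first 20 bases. MiR-378a-5p has a different seed. Reads that end early or carry a mismatch could be placed on more than 1 of these near-identical entries, and how the submitters counted such reads is not stated in the labels or notes. The levels of miR-378c, miR-378d, miR-378i and the other minor 3p-like entries are uncertain for that reason.

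Library totals were 462724 to 1269743 reads assigned to miRNAs. Normalised read counts are the authors' scaled values, in which 1 read was worth 0.803 to 2.0 units. The source name in the labels differs between siIGF2BP2 and siIGF2BP3 on one side and siIGF2BP1 and siC on the other. The first principal component, over the 313 miRNAs averaging at least 10 units, held 77.1% of the variance and separated the same 2 sets of libraries. For siIGF2BP2 and siIGF2BP3 against siC, the siRNA and this split cannot be told apart. The siIGF2BP1 comparison with siC, and that of siIGF2BP3 with siIGF2BP2, lie within 1 side. The labels do not say whether replicates were separate cultures, so the spread that the p-values measure may be purely technical. In bulk RNA, fewer cells of a type and less RNA per cell cannot be told apart.

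MiR-378a-3p, the main arm, made up nearly all of the family. It had 38437 of the 38855 reads on the 11 entries named miR-378, or 98.9%, and ranked 28 of 2576 by mean level. All 8 depletion libraries had more of it than both siC libraries, with the group means in the order siIGF2BP3, siIGF2BP1, siIGF2BP2 and siC. How many of all miRNAs separated in this way was not counted. The siIGF2BP3 difference from siC was known when the members were chosen. For siIGF2BP2 and siIGF2BP3, the siRNA cannot be told apart from the split by source name.

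In normalised read counts, miR-378a-3p had 4757 and 5585 in siIGF2BP1, 4962, 4437 and 4759 in siIGF2BP2, 5203, 6112 and 5494 in siIGF2BP3, and 3757 and 3889 in siC. The siC libraries were the lowest 2 of the 10, and the siIGF2BP1 range overlapped those of both other depletions. Group means were 5171 ± 586 in siIGF2BP1 (SD, n = 2), 4719 ± 265 in siIGF2BP2 (SD, n = 3), 5603 ± 464 in siIGF2BP3 (SD, n = 3) and 3823 ± 92.8 in siC (SD, n = 2). The order siIGF2BP2 below siIGF2BP1, and siIGF2BP1 below siIGF2BP3, rests on groups whose libraries overlap, whereas siIGF2BP3 and siIGF2BP2 do not overlap.

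**Figure D1:**
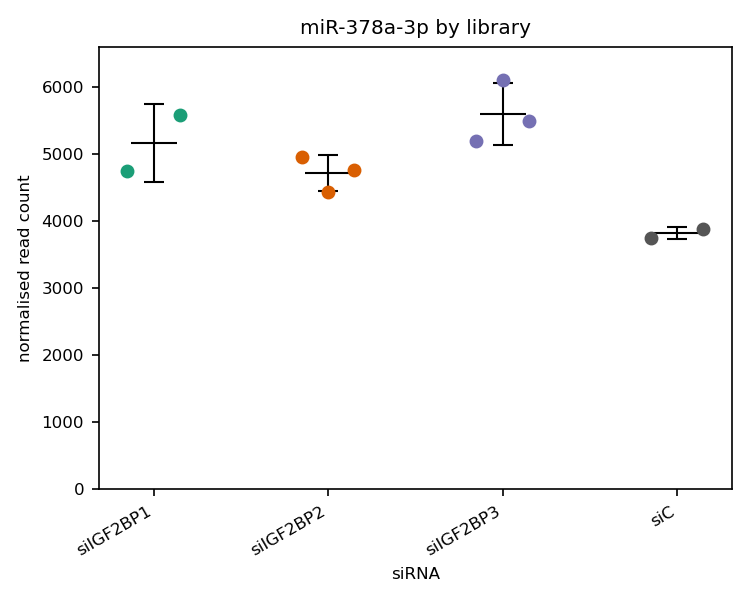
Normalised read count (y axis, from 0) of miR-378a-3p by siRNA group (x axis). Points are libraries, and the horizontal line and bars are the group mean and SD. Both siC libraries lie at or below 3889, and the 8 depletion libraries lie at or above 4437.

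As a share of all reads, miR-378a-3p averaged 0.522% in siIGF2BP1, 0.492% in siIGF2BP2, 0.599% in siIGF2BP3 and 0.405% in siC. Behind these shares stood 5921 and 6336 reads in siIGF2BP1, 3507, 2324 and 2756 in siIGF2BP2, 2607, 5166 and 4620 in siIGF2BP3, and 2278 and 2922 in siC. In the highest library, siIGF2BP3 replicate 2, the share was 0.634% (exact Clopper-Pearson 95% interval 0.617 to 0.651%). In the lowest, siC C3, it was 0.398% (0.384 to 0.413%). These intervals cover counting error only.

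The comparison of siIGF2BP1 with siC, which asks how miRNA levels differ after IGF2BP1 depletion, gave miR-378a-3p a log2 fold change of 0.43 ± 0.12 (SE), with a 95% interval of 0.17 to 0.69. Its adjusted p over all 889 miRNAs tested was 0.0743 by limma. It was not called at 0.05, though both siIGF2BP1 libraries exceeded both siC libraries. In siIGF2BP2 against siC the log2 fold change was 0.30 ± 0.11 (SE), with an interval of 0.07 to 0.54 and a limma adjusted p of 0.126. In siIGF2BP3 against siIGF2BP2 it was 0.25 ± 0.10 (SE), with an interval of 0.04 to 0.46 and a limma adjusted p of 0.251. Each of these 3 comparisons shares libraries with siIGF2BP3 against siC, the one known beforehand. In that one the log2 fold change was 0.55 ± 0.11 (SE), or 1.47 times the siC mean. The authors' deposited table gives log2 fold changes of 0.44 for siIGF2BP1, 0.30 for siIGF2BP2 and 0.55 for siIGF2BP3, all against siC, and false discovery rates of 0.561, 1 and 0.0369.

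**Figure D2:**
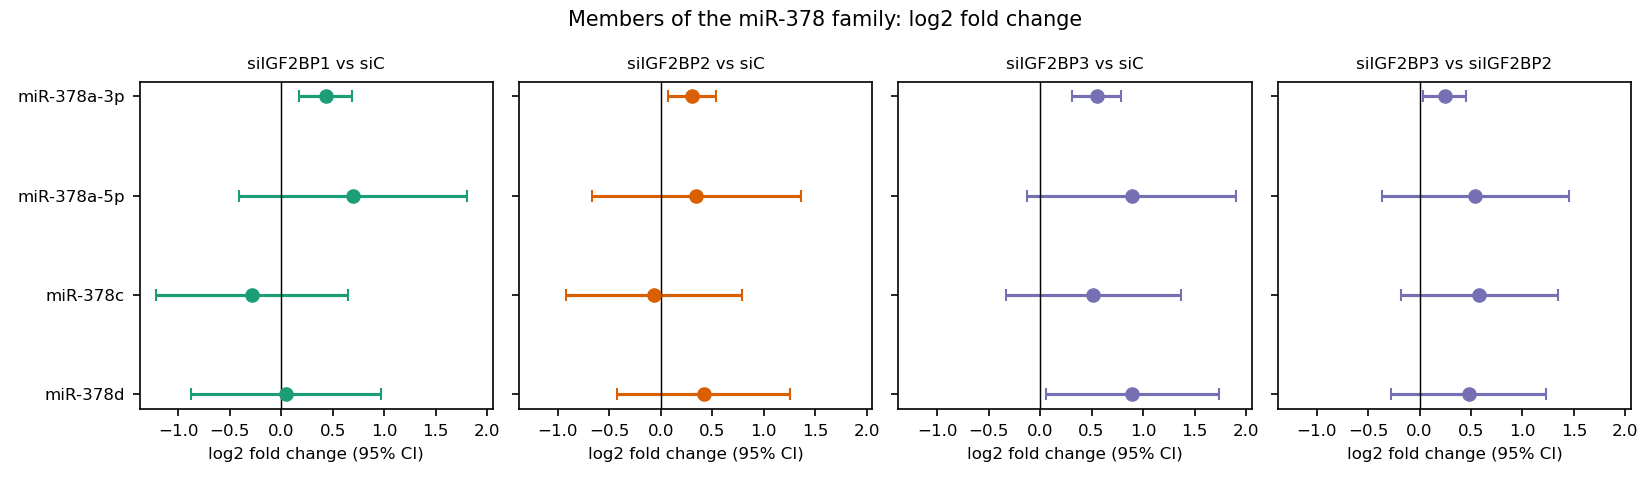
Log2 fold change (x axis) with its 95% confidence interval for each member (rows) in each comparison (panels), from limma. The interval of miR-378a-3p is the narrowest in each panel, and its 4 estimates are 0.43, 0.30, 0.55 and 0.25.

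The size of the miR-378a-3p difference depended on how libraries were scaled. Under the deposited, TMM, median-of-ratios, upper-quartile and library-total scalings, the log2 fold change was 0.20 to 0.43 in siIGF2BP1, 0.18 to 0.78 in siIGF2BP2 and 0.44 to 1.15 in siIGF2BP3, each against siC. Between siIGF2BP3 and siIGF2BP2 it was 0.21 to 0.36. The median of the 313 abundant miRNAs moved with the scaling, from 0.04 to 0.52 for siIGF2BP2 against siC between the deposited and upper-quartile values. Relative to that median, the log2 difference of miR-378a-3p against siC was 0.27 to 0.28 for siIGF2BP1, 0.26 to 0.27 for siIGF2BP2 and 0.47 for siIGF2BP3. Between siIGF2BP3 and siIGF2BP2 it was 0.21. Rescaling shifts all miRNAs of a library alike, so subtracting the median removes it. The narrow ranges follow from the calculation and are no test of the scaling.

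**Figure D3:**
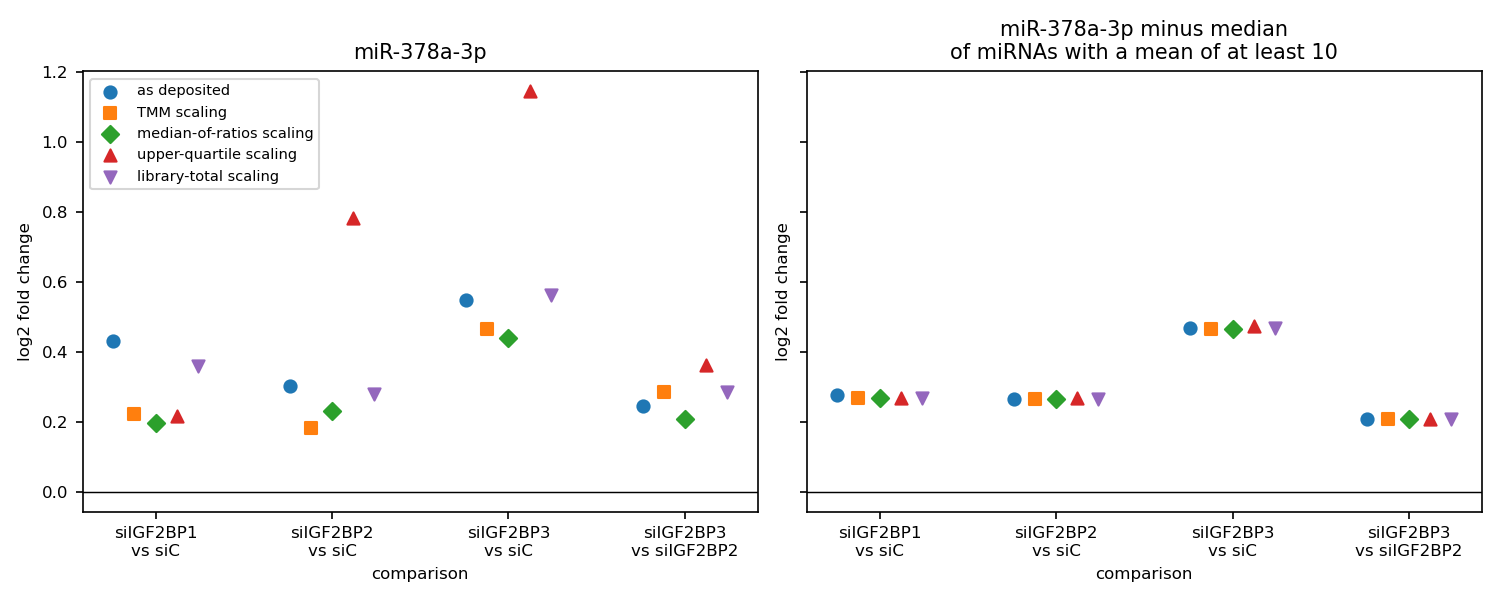
Log2 fold change of miR-378a-3p (y axis) in the 4 comparisons (x axis) under 5 scalings (symbols), as estimated (left) and after subtracting the median of the 313 abundant miRNAs (right). Upper-quartile values reach 0.78 and 1.15 on the left for siIGF2BP2 and siIGF2BP3 against siC. On the right the 5 symbols of each comparison nearly coincide, because subtracting the median removes the scaling.

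MiR-378a-5p, the other arm of the hairpin, was rare, with 111 reads in all 10 libraries and rank 288 by mean. Its normalised read counts were 19.3 and 11.5 in siIGF2BP1, 18.4, 5.73 and 13.8 in siIGF2BP2, 16.0, 16.6 and 19.0 in siIGF2BP3, and 11.5 and 6.65 in siC. All 3 siIGF2BP3 libraries were above both siC libraries, and the other depletion groups overlapped siC. These values rest on 3 to 24 reads a library. The log2 fold change was 0.70 ± 0.51 (SE) in siIGF2BP1 against siC, with a limma adjusted p of 0.678. It was 0.35 ± 0.47 (SE) in siIGF2BP2 against siC, with a limma adjusted p of 0.778. In siIGF2BP3 against siC it was 0.89 ± 0.47 (SE). Between siIGF2BP3 and siIGF2BP2 it was 0.54 ± 0.42 (SE), with a limma adjusted p of 0.669 and an interval of -0.36 to 1.45.

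The share of miR-378a-3p in the reads of both arms does not depend on scaling between libraries. It was 99.70 ± 0.141% in siIGF2BP1, 99.74 ± 0.122% in siIGF2BP2, 99.69 ± 0.0374% in siIGF2BP3 and 99.76 ± 0.0958% in siC (SD, n = 2, 3, 3 and 2). The groups overlapped. Two-sided exact permutation tests over libraries gave p = 0.667 for siIGF2BP1 and 1 for siIGF2BP2 against siC, and 0.8 for siIGF2BP3 against siIGF2BP2. The smallest p that these designs allow is 0.333 with 2 against 2 libraries, 0.2 with 3 against 2 and 0.1 with 3 against 3, so none could pass 0.05.

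MiR-378c, which has the seed of miR-378a-3p, had 142 reads in all and rank 262. Its normalised read counts were 8.03 and 22.9 in siIGF2BP1, 19.8, 15.3 and 13.8 in siIGF2BP2, 27.9, 22.5 and 23.8 in siIGF2BP3, and 16.5 and 17.3 in siC. The siIGF2BP3 libraries were above every siIGF2BP2 and siC library, while the siIGF2BP1 libraries lay on either side of siC. Log2 fold changes were -0.28 ± 0.43 (SE) in siIGF2BP1 and -0.06 ± 0.39 (SE) in siIGF2BP2 against siC, with limma adjusted p-values of 0.882 and 0.976. In siIGF2BP3 it was 0.52 ± 0.39 (SE) against siC and 0.58 ± 0.35 (SE) against siIGF2BP2, the second with a limma adjusted p of 0.492. Leaving out siIGF2BP1 replicate 1 turned the siIGF2BP1 value to 0.42.

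MiR-378d was the rarest member, with 80 reads over its 2 rows, which hold 2 genomic copies and were summed. Its normalised read counts were 8.03 and 7.05 in siIGF2BP1, 8.49, 11.5 and 10.4 in siIGF2BP2, 9.98, 17.7 and 16.6 in siIGF2BP3, and 6.60 and 7.98 in siC. The siIGF2BP2 and siIGF2BP3 libraries were all above siC, and siIGF2BP1 overlapped it. Log2 fold changes were 0.05 ± 0.42 (SE) in siIGF2BP1 and 0.42 ± 0.39 (SE) in siIGF2BP2 against siC, with limma adjusted p-values of 1 and 0.669. The siIGF2BP1 sign turned under other scalings. In siIGF2BP3 the value was 0.90 ± 0.39 (SE) against siC and 0.48 ± 0.35 (SE) against siIGF2BP2, the second with a limma adjusted p of 0.619. The first copy had 1 to 5 reads a library and the second 2 to 10.

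**Figure D4:**
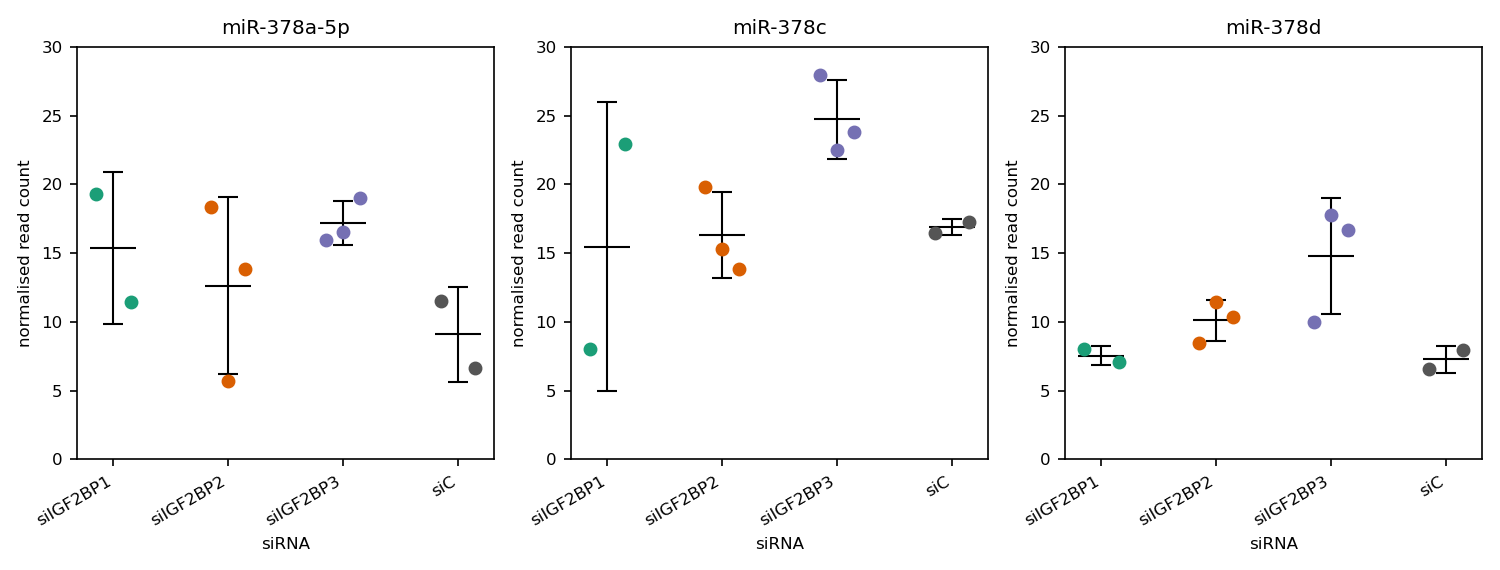
Normalised read counts (y axes, from 0, same range) of miR-378a-5p, miR-378c and miR-378d by siRNA group (x axes). Points are libraries, and lines and bars are the group mean and SD. The siIGF2BP3 points of miR-378c, at 22.5 to 27.9, lie above both siC points, and miR-378c in siIGF2BP1 spans 8.03 to 22.9.

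To ask whether the minor entries kept pace with miR-378a-3p, their reads were expressed per 100 reads of it. MiR-378c had 0.290 ± 0.171 in siIGF2BP1, 0.345 ± 0.0545 in siIGF2BP2, 0.446 ± 0.0854 in siIGF2BP3 and 0.442 ± 0.00419 in siC (SD, n = 2, 3, 3 and 2). MiR-378d had 0.148 ± 0.0301 in siIGF2BP1, 0.216 ± 0.0436 in siIGF2BP2, 0.262 ± 0.0609 in siIGF2BP3 and 0.190 ± 0.0210 in siC. The miR-378c ratio was lower in both siIGF2BP1 libraries (0.169 and 0.410) and in all 3 siIGF2BP2 libraries (0.290 to 0.399) than in both siC libraries (0.439 and 0.445). The exact permutation p was 0.333 for siIGF2BP1 and 0.2 for siIGF2BP2, each the smallest that its design allows. The miR-378d ratio was also lower in both siIGF2BP1 libraries (0.169 and 0.126) than in both siC libraries (0.176 and 0.205), with an exact permutation p of 0.333. Adjusted by Benjamini-Hochberg over the 12 ratio tests made, arms included, these p-values were 0.8, the lowest of the 12. With these library numbers, the tests cannot show that the ratios were alike. The siC ratios rested on 10 and 13 reads of miR-378c and on 4 and 6 of miR-378d. In siIGF2BP1 miR-378c had 10 and 26 reads and miR-378d 10 and 8, and in siIGF2BP2 miR-378c had 14, 8 and 8. Counting error is large at such numbers. MiR-378a-3p, the divisor, was lowest in siC, so an unchanged minor entry would also give lower ratios after depletion. The share of all miRNAs with such a separation was not counted.

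**Figure D5:**
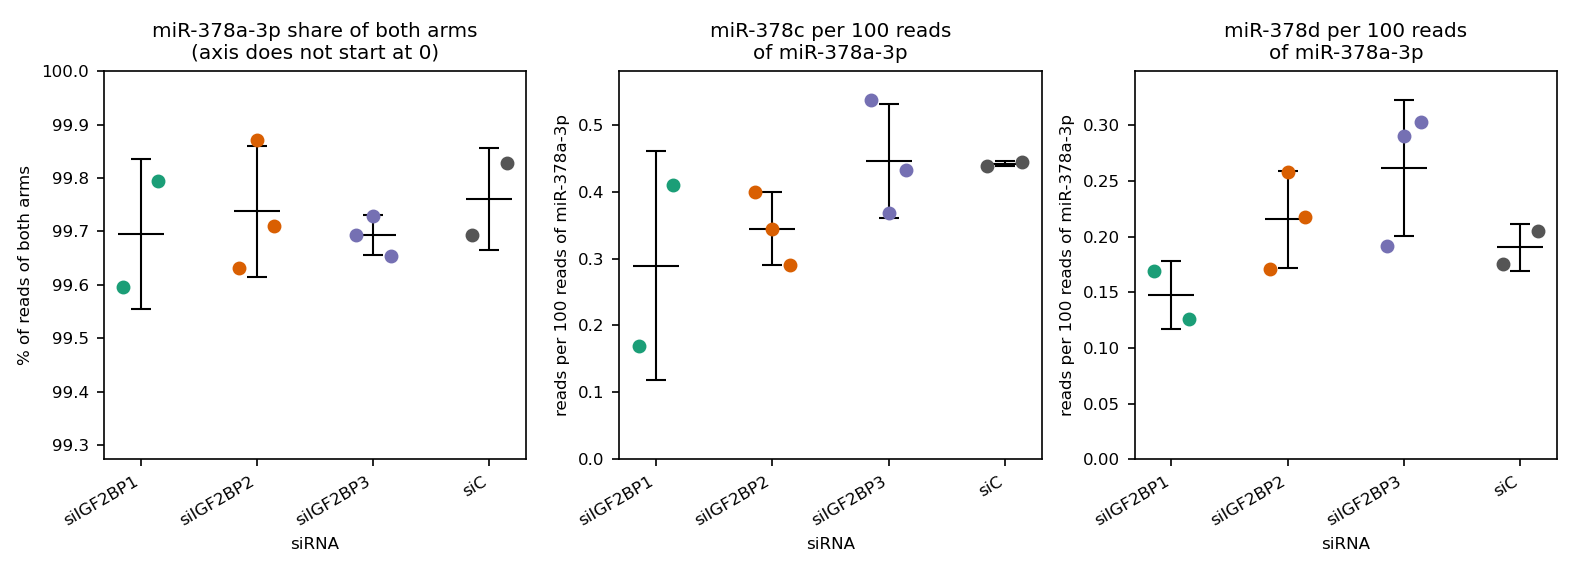
Share of miR-378a-3p in the reads of both arms (left, percent, axis not starting at 0) and reads of miR-378c (middle) and miR-378d (right) per 100 reads of miR-378a-3p, by siRNA group (x axes). Points are libraries, with group mean and SD. The left panel spans 99.60 to 99.87%, and the ranges of the groups overlap there.

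Counted together, 0 of the 4 members were called in siIGF2BP1 against siC by limma, where 2.47% of 889 miRNAs were called. There, 1 member had an unadjusted limma p under 0.05, as did 122 of the 889 miRNAs. In siIGF2BP2 against siC 0 members were called, against 9.00% of all miRNAs. An unadjusted limma p under 0.05 was found for 1 member and for 159 of the 889 miRNAs. In siIGF2BP3 against siIGF2BP2 0 members were called, against 3.15% of all miRNAs. Here 1 member had an unadjusted limma p under 0.05, against 123 of the 889 miRNAs. EdgeR and DESeq2 on recovered reads, for 335 miRNAs, also called 0 members in these 3 comparisons. EdgeR called 12.5%, 15.5% and 11.9% of those miRNAs, and DESeq2 8.96%, 15.2% and 11.9%. In siIGF2BP3 against siC, the comparison known beforehand, the call of 1 member, miR-378a-3p, by limma, edgeR and DESeq2 repeats the choice of the members, and nothing is read from it. The shares of all miRNAs called there were 10.6%, 19.1% and 19.7% by these tools. All 4 members passed the filter on low values in the table. The median log2 fold change of the 4 members was 0.24 in siIGF2BP1, 0.32 in siIGF2BP2 and 0.72 in siIGF2BP3, against siC, and 0.51 in siIGF2BP3 against siIGF2BP2. Over all miRNAs tested the medians of these 4 comparisons, in the same order, were 0.10, -0.03, 0 and 0. Many of those miRNAs are rarer than the members, which all average at least 10. Over the 313 miRNAs at that level the medians were 0.16, 0.04, 0.08 and 0.04.

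Members whose libraries all lay above those of the other group numbered 1 of 4 for siIGF2BP1 against siC, where 23.1% of all miRNAs did so. The numbers were 2 for siIGF2BP2 against siC (10.7% of all), 4 for siIGF2BP3 against siC (11.2%) and 2 for siIGF2BP3 against siIGF2BP2 (7.99%). These shares are over all 889 miRNAs tested, many of them rarer than the members. Separation was not counted over the 313 miRNAs averaging at least 10, so the shares cannot show how unusual the members are. The comparison that separated all 4 is the known one, and the other comparisons share its libraries.

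The 7 other entries named miR-378 had 85 reads in all. MiR-378i, with the same seed, had 52 of them, between 1 and 10 a library. Its normalised read counts were 4.82 and 8.82 in siIGF2BP1, 8.49, 1.91 and 5.18 in siIGF2BP2, 11.97, 7.10 and 11.9 in siIGF2BP3, and 3.30 and 2.66 in siC. Its siIGF2BP1 and siIGF2BP3 libraries were above both siC libraries, as were those of 23.1% and 11.2% of all miRNAs. MiR-378f had 17 reads, miR-378b 11 (0 in both siC libraries, which allows up to 3 reads in each), and miR-378e 3. MiR-378g and miR-378j, which do not share the seed, had 1 read each, and miR-378h had 0. MiR-422a had 5.

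Among the abundant miRNAs, the patterns most like that of miR-378a-3p over the 10 libraries were those of miR-1260b (Pearson r 0.914), miR-320a (0.885), miR-27a-5p (0.837), miR-106b-3p (0.837) and miR-199a-3p (0.821), of 312 compared on the log2 scale. MiR-378a-5p followed miR-378a-3p with an r of 0.58, miR-378c with 0.45 and miR-378d with 0.62. Values at least that high were found for 42, 68 and 32 of the 312 miRNAs. The points share libraries and scaling, and the minor members rest on few reads, so these r values are descriptions only. For miR-378a-5p itself the closest were miR-1910-5p (0.750), miR-28-3p (0.743), miR-6087 (0.731), miR-7977 (0.725) and miR-199a-5p (0.712).

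Of 23 other miRNAs listed for roles in lipid, glucose, brown fat or mitochondrial metabolism, 19 passed the filter. Called higher and called lower were 2 and 1 in siIGF2BP1 against siC, 0 and 6 in siIGF2BP2 against siC, 1 and 7 in siIGF2BP3 against siC, and 1 and 1 in siIGF2BP3 against siIGF2BP2. The background was 2.47%, 9.00%, 10.6% and 3.15% of all miRNAs called. Many of those are rare, whereas several of the listed miRNAs are abundant, so these shares are a low reference for the list. With the fit limited to the 313 miRNAs averaging at least 10, 52, 49, 63 and 40 were called, in the same order. Calls of the list were not counted in that fit. The list's median log2 fold changes were -0.02, -0.52, -0.45 and -0.32, against 0.10, -0.03, 0 and 0 over all miRNAs. In siIGF2BP1 against siC, miR-210-3p, the hypoxia-induced miRNA that represses mitochondrial iron-sulphur cluster assembly, rose to 153 ± 13.6 in siIGF2BP1, against 24.3 ± 0.556 in siC (SD, n = 2 each), with a log2 fold change of 2.60 ± 0.28 (SE) and a limma adjusted p of 0.00030. MiR-27b-3p, a repressor of adipogenesis, averaged 3738 ± 323 in siIGF2BP1, against 2481 ± 87.7 in siC (limma adjusted p 0.0495). That p lies just under 0.05, and its dependence on scaling and single libraries is not given here. In this comparison the median log2 fold change of miRNAs averaging at least 10 was 0.16 as deposited and -0.04 under TMM. MiR-148a-3p, which represses the LDL receptor, fell to 97.2 ± 54.5 in siIGF2BP1, against 395 ± 64.2 in siC (limma adjusted p 0.0263). MiR-375, a regulator of insulin secretion, averaged 21.4 ± 12.1 in siIGF2BP1 and 212 ± 174 in siC (SD, n = 2 each), and its limma adjusted p was 0.0534. The siC libraries were far apart, at 89.2 and 335. In siIGF2BP3 against siIGF2BP2, miR-155-5p, known from immune cells and from repression of brown fat formation, rose to 9510 ± 760 in siIGF2BP3, against 6251 ± 358 in siIGF2BP2 (SD, n = 3 each, limma adjusted p 0.00556). MiR-27b-3p fell to 1245 ± 172 in siIGF2BP3, against 1728 ± 112 in siIGF2BP2 (limma adjusted p 0.0409). In siIGF2BP2 against siC, miR-143-3p, abundant in smooth muscle, averaged 10.6 ± 0.798 in siIGF2BP2 and 1222 ± 188 in siC, and miR-148a-3p 23.5 ± 2.89 in siIGF2BP2 and 395 ± 64.2 in siC (SD, n = 3 and 2). MiR-375 and miR-370-3p were at 0 in all 3 siIGF2BP2 libraries. In siC, miR-370-3p averaged 14.7 ± 0.145, and miR-375 had the values given above. The low levels were not particular to siIGF2BP2. In siIGF2BP3, miR-143-3p averaged 5.29, miR-148a-3p 24.2, miR-375 0.665 and miR-370-3p 0.394, and none of them was called between siIGF2BP3 and siIGF2BP2. Against siC, the siRNA and the split by source name cannot be told apart for either group.

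The tissues in which miR-378a is best known were checked by marker miRNAs. The liver marker miR-122-5p had 0 reads in every library. The 7 skeletal and heart muscle markers had 2 to 11 reads a library in siIGF2BP1, 0 in siIGF2BP2, 1 in siIGF2BP3 and 0 to 3 in siC. The smooth muscle and fibroblast pair held 0.0569 to 0.162% of reads in siIGF2BP1, 0.00100 to 0.00121% in siIGF2BP2, 0.000368 to 0.000910% in siIGF2BP3 and 0.119 to 0.139% in siC. The 3 erythroid markers held 0.000945 to 0.0240% in siIGF2BP1, at most 0.000202% in siIGF2BP2, at most 0.000260% in siIGF2BP3 and 0.00868 to 0.0740% in siC, with miR-486-5p at 0 throughout. The 3 leukocyte markers held 0.0413 to 0.0428% in siIGF2BP1, 0.0440 to 0.0638% in siIGF2BP2, 0.0554 to 0.163% in siIGF2BP3 and 0.0443 to 0.0537% in siC. The neural pair held 0.0225 to 0.0448% in siIGF2BP1, 0.0105 to 0.0111% in siIGF2BP2, 0.0182 to 0.0194% in siIGF2BP3 and 0.0134 to 0.0219% in siC. The 5 epithelial markers had at most 7 reads a library, and miR-429 had 0. In every library, smooth muscle and erythroid shares were higher in siIGF2BP1 and siC than in siIGF2BP2 and siIGF2BP3. The part of any marker in the miR-378 values was not tested.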

How the data were processed

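Small RNA was sequenced from 10 ES-2 libraries. Per the submitters' processing notes, cutadapt 1.6, Bowtie2 2.2.4, featureCounts 1.4.6, edgeR 3.12 and hg19 were used. Settings, annotation release and scaling are not stated in any source used here. The authors deposited a normalised signal per miRNA and library. All values were whole multiples of 1 read (tolerance 0.01 reads), so reads were recovered. The authors deposited log2 fold changes, p-values and false discovery rates for each depletion against siC, used only where named. In total 0 sample columns were left unused. Rows of the same mature miRNA were summed. The 2 control columns match no single sample by name and are called siC C2 and siC C3. A chi-square over miRNAs, divided by its degrees of freedom, was 6.80 to 38.7 between replicates, so no 2 replicates differed by counting error alone. It cannot tell separate cultures from further libraries of the same RNA.

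limma 3.58.1 (R 4.3.3) with an intensity trend was fitted to log2(value + 1), for the 889 miRNAs that reached 1 in 2 or more libraries, with all 4 groups together. A miRNA was called at a Benjamini-Hochberg adjusted p under 0.05. The pseudocount shrinks fold changes of low miRNAs. Ratios were compared by exact permutation tests (scipy 1.17.1). Alternatives were pseudocounts 0.1 and 5, other scalings and filters, edgeR 4.0.16 and DESeq2 1.42.0 on the recovered reads (335 miRNAs), copies apart, 2 groups alone, a replicate block, and leaving out each library. Sequences are from RefSeq (GRCh38.p14) and gene positions from GENCODE. On simulated data, limma recovered, among miRNAs with a mean of at least 10, 33.3% of 2-fold and 80.5% of 4-fold changes for siIGF2BP1 against siC. For siIGF2BP3 against siIGF2BP2 it recovered 58.3% and 95.1%. The simulation gave all miRNAs 1 common spread and held no split of the libraries. It covered no change below 2-fold, so it does not describe recovery of differences as small as those of miR-378a-3p. Members, lists and tests were chosen with earlier results of these data known. Named miRNAs were the members, all miR-378 entries and miR-422a, up to 4 of the metabolism list per comparison by lowest adjusted p, and the 5 patterns most like miR-378a-3p and miR-378a-5p.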

Additional observations from a re-analysis of the deposited data

Results flagged for a closer look

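MiR-378i was not among the 4 members, and its signal exceeded both control libraries in siIGF2BP1 and in siIGF2BP3. Of all 889 miRNAs, 23.1% did so in siIGF2BP1 and 11.2% in siIGF2BP3. The lowest siIGF2BP1 library of miR-378i was at 4.82 and its lowest siIGF2BP3 library at 7.10 normalised read counts, against 3.30 in the higher siC library. The siIGF2BP2 libraries, at 8.49, 1.91 and 5.18, overlapped siC, with replicate 2 below both siC libraries. These values rest on 6 to 10 reads in each siIGF2BP1 and siIGF2BP3 library, on 6, 1 and 3 in siIGF2BP2 and on 2 in each siC library. By limma, the log2 fold change in siIGF2BP1 against siC was 0.93 with an adjusted p of 0.610, and the part of reads shared with miR-378a-3p was not tested.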

How the results depend on the processing

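In siIGF2BP3 against siC, the comparison known when the members were chosen, the log2 fold change of miR-378a-3p was 0.48 to 0.60 without single libraries and 0.44 to 1.15 under the other settings, as a description. In the other 3 comparisons its sign was kept in every alternative run. There it was not called except in siIGF2BP1 against siC among the 313 miRNAs with a mean of at least 10 (0.43, adjusted p 0.0304) and in siIGF2BP2 against siC under upper-quartile scaling (0.78, adjusted p 0.00166). Adjusted p over its alternatives was 0.0304 to 0.826 in the first and 0.00166 to 0.477 in the second. Without single libraries the values were 0.32 to 0.55, 0.27 to 0.35 and, for siIGF2BP3 against siIGF2BP2, 0.18 to 0.30.

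Signs of minor members turned in siIGF2BP1 against siC for miR-378d, at -0.14 (TMM), -0.16 (median of ratios), -0.14 (upper quartile), -0.018 (library total), -0.21 (edgeR), -0.16 (DESeq2), -0.30 (copies apart), and over left-out libraries from -0.075 (without siC C2) to 0.17, with -0.037 without siIGF2BP1 replicate 1. For miR-378c they ranged from -0.99 to 0.42 (without siIGF2BP1 replicate 1). In siIGF2BP2 against siC they turned for miR-378c at 0.39 (upper quartile) and ranged over left-out libraries from -0.20 to 0.040 (without siIGF2BP2 replicate 3), and for miR-378a-5p from -0.010 (without siC C3) to 0.79. Differences of the 3p share, in percentage points, ranged over left-out libraries from -0.165 to 0.0338 (siIGF2BP1 against siC), -0.0917 to 0.0438 (siIGF2BP2 against siC) and -0.0979 to 0.0223 (siIGF2BP3 against siIGF2BP2). Per 100 reads of miR-378a-3p, the difference of miR-378c between siIGF2BP3 and siC ranged from -0.0416 to 0.0430, and that of miR-378d between siIGF2BP2 and siC was -0.0175 with copies apart.

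Of all miRNAs, 22 were called in siIGF2BP1 against siC, 19 of them higher. The number was 10 under upper-quartile scaling, 52 with a mean of at least 10, 42 by edgeR, 10 with 2 groups alone and 2 to 25 without single libraries (3 without siC C2, 8 without siIGF2BP1 replicate 1, 2 without replicate 2). TMM gave 12 higher and 13 lower, median of ratios 13 and 15, library total 17 and 7. In siIGF2BP2 against siC 80 were called (11 higher), against 158 under upper-quartile scaling (94 higher), 49 with a mean of at least 10, 52 by edgeR, 51 by DESeq2 and 53 to 91 without single libraries (53 without siIGF2BP2 replicate 2 or 3). In siIGF2BP3 against siC 94 were called, against 203 under upper-quartile scaling (137 higher) and 70 to 105 without single libraries. In siIGF2BP3 against siIGF2BP2 28 were called, against 17 under upper-quartile scaling and 14 to 22 without single libraries. The cause was not tested.

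Same-numbered siIGF2BP2 and siIGF2BP3 libraries did not deviate together over all tested miRNAs (r 0.03, -0.02 and -0.01). Among miRNAs with a mean of at least 10, r was -0.12, -0.16 and -0.04. The labels do not say whether the numbers pair libraries, and these r values cannot decide it. With the number as a replicate block, 5 miRNAs were called and miR-378a-3p stood at 0.25 with an adjusted p of 0.476. Depth limits miR-378a-5p, miR-378c and miR-378d, at 3 to 26 reads a library.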
